A study of Mus musculus with 12 samples.

Results

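The comparison described here is that of liver from mice lacking S1pr1 in myeloid cells with liver of their littermates, all kept on standard chow. It rests on 6 of the 12 RNA-seq libraries of the study, 3 for each genotype, chosen by the genotype and diet in their labels. Knockout mice carried S1pr1 loxP/loxP together with 1 copy of the Cre allele (Lyz2-Cre/0). The mice called wild type (WT) were littermates with S1pr1 loxP/loxP and no Cre, so both groups carry the floxed alleles and differ in Cre. Chow was given for 24 weeks from 12 weeks of age. The other 6 libraries come from the same genotypes on a diet high in fat, fructose and cholesterol (FFC) for the same time, and were used as a second set of animals. The labels do not say that each library is 1 mouse, so p-values measure the spread between these libraries.

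S1pr1 encodes a cell-surface receptor for sphingosine 1-phosphate (S1P), a lipid made from sphingosine by sphingosine kinases, carried in blood by the apolipoprotein Apom and albumin, and broken down by a lyase and by phosphatases. Lymphocytes and myeloid cells follow S1P gradients, and endothelial cells express S1pr1 in abundance. Lyz2-Cre is driven from the lysozyme gene, which is active in macrophages, monocytes and neutrophils. In the liver these include the resident macrophages called Kupffer cells. Bulk RNA sums all cells of the tissue, so fewer cells of a type and less RNA per cell cannot be told apart.

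The deleted gene was first checked in every library. S1pr1 (chr3:115710433-115715055, mm10) stood at 29.8, 27.3 and 44.4 CPM (counts scaled to library size and composition) in the wild-type livers and at 41.5, 28.2 and 32.9 CPM in the knockout livers. The groups overlapped, and the fitted knockout minus wild-type change was 0.02 on the log2 scale (SE 0.26, adjusted p = 0.977). Gene counts over the whole liver hold S1pr1 RNA from all its cells, so they do not show whether it was deleted in myeloid cells. Lyz2 (chr10:117277334-117282274), the gene that carries Cre, stood at 58.2, 47 and 50.8 CPM in wild type and at 44.8, 40.8 and 54.8 CPM in the knockout. Its change was -0.14 (SE 0.23, adjusted p = 0.8), and its groups overlapped too.

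The libraries held 18873092 to 25855609 counts, and 16008 to 16901 genes were detected in knockout against 17268 to 19029 in wild-type livers. Knockout livers were less alike than wild-type livers, with rank correlations of 0.945 to 0.963 among knockout and 0.969 to 0.976 among wild-type libraries. Knockout 1 stood apart on the first principal component, at 65.9 against -30.1 to 14.7 for the other 5. Albumin, the main secreted hepatocyte protein, took 7.31% of its counts and 10.1% to 14.3% of theirs. Hepatocyte genes filled every library, whereas 10 of 12 exocrine pancreas genes, 5 of 8 skeletal muscle genes and 7 of 10 kidney and intestine genes were at 0 in all chow libraries.

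Of 43346 genes in the table, 14319 had enough counts for the test, 12279 of them protein-coding. With edgeR's quasi-likelihood test on the 6 chow libraries, 0 genes (0%) had an adjusted p under 0.05. The smallest adjusted p was 0.0671. At an unadjusted p under 0.05 there were 2283 genes (15.9%), of which 1394 (9.74%) were at higher levels in knockout liver and 889 (6.21%) at lower levels. In 3110 genes (21.7%) the 3 knockout libraries did not overlap the 3 wild-type libraries, with the knockout above in 1507 (10.5%) and below in 1603 (11.2%). Other tools on the same libraries called more, namely 392 genes with DESeq2, 15 with limma-voom and 292 with limma-voom weighted by library quality. edgeR without a filter on low counts called 304. When the spread was shared with the FFC groups, in a fit of all 12 libraries, 1185 genes (7.28% of 16283) passed, 653 (4.01%) at higher and 532 (3.27%) at lower levels in knockout. The biological coefficient of variation was 0.331 among chow libraries and 0.172 among FFC libraries, so that shared spread is smaller than the one the chow livers show. Of those 1185 genes 1097 were tested in the 6-library fit, where 1091 had an unadjusted p under 0.05. Both fits compare the same chow libraries, so this is no independent check.

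At an adjusted p under 0.1, 18 genes (0.126%) stood out, 16 (0.112%) at higher and 2 (0.014%) at lower levels in knockout liver, with fitted folds of 2.3 to 4.48. Itga5, Emc10 and C4b are also named by rules of this comparison, and the others were picked out after their values were seen. DESeq2 and the weighted limma-voom each called all 18 at 0.05, limma-voom 14 of them, and the fit of all 12 libraries 16. These fits use the same chow counts from which the 18 were picked, so they are no independent support.

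Emc10, a subunit of the complex that inserts membrane proteins in the endoplasmic reticulum, had the smallest p. Emc10 (chr7:44489937-44496529) stood at 25.8, 26.8 and 26.5 CPM in wild-type and at 85.2, 75.5 and 55 CPM in knockout livers. The wild-type values lay within about 1 CPM of each other and the lowest knockout value was far above them. This is a 2.74-fold difference, or 1.45 on the log2 scale (SE 0.24, adjusted p = 0.0671), and without knockout 1 it was 1.29 (adjusted p = 0.0467). Itga5, the alpha chain of the main fibronectin receptor, stood at 10.1, 8.23 and 8.83 CPM in wild type and at 37.2, 25.7 and 18.4 CPM in knockout, with a change of 1.59 (SE 0.30, adjusted p = 0.0779). C4b, complement component 4, was at 904, 1070 and 823 CPM against 3560, 2420 and 1490 CPM, a change of 1.43 (SE 0.29, adjusted p = 0.0843). For both genes knockout 1 held the highest and knockout 3 the lowest knockout level.

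Several of the others are metabolic enzymes. Acads, the mitochondrial dehydrogenase for short-chain fatty acids, was at 119, 138 and 122 CPM in wild type and at 327, 298 and 268 CPM in knockout livers (log2 change 1.25, SE 0.23, adjusted p = 0.0779). Pcx, pyruvate carboxylase, which makes oxaloacetate for gluconeogenesis and the citric acid cycle, was at 354, 369 and 315 CPM against 970, 755 and 672 CPM (1.22, SE 0.24, adjusted p = 0.0843). Oplah, the 5-oxoprolinase of the glutathione cycle, was at 98.7, 106 and 99.1 CPM against 310, 275 and 178 CPM (1.33, SE 0.25, adjusted p = 0.0779). In each of the 3 genes all knockout libraries lay well above all wild-type libraries. Slc27a4, a fatty acid transport protein, stood at 24.1 ± 3.02 CPM (SD, n = 3) in wild-type and 59.5 ± 16.5 CPM in knockout livers. Slc25a47, a mitochondrial carrier of hepatocytes, stood at 301.5 ± 75.4 against 755 ± 229 CPM, Cyp2d40, a cytochrome P450, at 43.1 ± 3.17 against 110 ± 25.5 CPM, and Galk1, galactokinase, at 27.8 ± 5.97 against 63.7 ± 12 CPM. The remaining members at higher levels were Klhl25, an adaptor of a ubiquitin ligase, Flot2, a membrane raft protein, Rnasek, a ribonuclease, Med25, a Mediator subunit, and the noncoding or pseudogene entries Gm10736 and Gm28438.

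The 2 members at lower levels share 1 locus. Onecut1 (chr9:74861921-74891781) encodes HNF6, a transcription factor of hepatocytes and bile duct cells. It stood at 45.6, 18.1 and 24 CPM in wild-type and at 9.41, 5.61 and 4.35 CPM in knockout livers, a log2 change of -2.17 (SE 0.36, adjusted p = 0.0671). Gm20649 (chr9:74848463-74891476) spans most of the same stretch and stood at 35.8, 13.8 and 17.4 CPM against 8.72, 4.69 and 3.36 CPM, a change of -1.98 (SE 0.40, adjusted p = 0.0882). Both follow the same order over the 6 libraries, and whether counting used the strand is not stated, so reads of these 2 entries may be shared. Neither passed in the fit of all 12 libraries, with adjusted p = 0.114 for Onecut1 and adjusted p = 0.126 for Gm20649. Onecut1 varied widely on FFC as well, with values of 14.6, 8.25 and 5.93 CPM in wild-type and 55.2, 13.3 and 6.95 CPM in knockout livers.

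**Figure D1:**
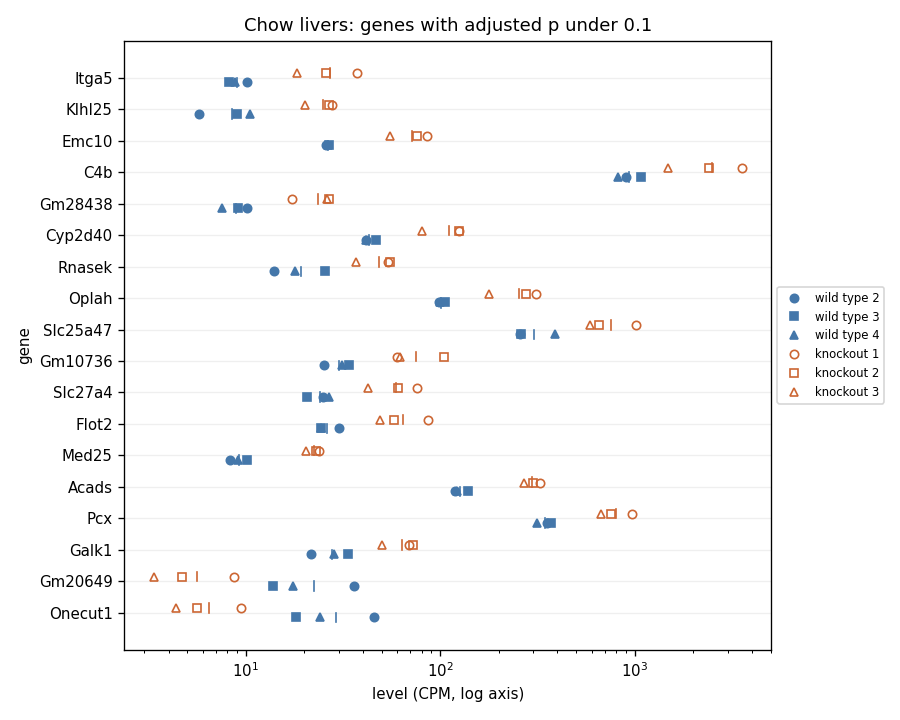
Levels of the 18 genes with an adjusted p under 0.1 in the 6 chow libraries, in CPM on a log axis. Filled blue symbols are wild-type and open orange symbols knockout libraries, and short bars are group means. In the 16 genes at the top every knockout library lies to the right of every wild-type library, with knockout 3 often nearest, and in Onecut1 and Gm20649 every knockout library lies to the left.

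A rule on size of change named 24 genes, 12 in each direction and with Itga5 again among them. Each passed in edgeR's fit of all 12 libraries but not in the 6-library edgeR fit used here, and had levels without overlap on chow. Other tools on the 6 chow libraries called some of them, as DESeq2 did Itga5. Among the 12 at higher levels in knockout were regulators of inflammation and immune cells. Slpi, a secreted inhibitor of leukocyte proteases, stood at 1.34, 0.422 and 0.451 CPM in wild type and 5.44, 5.76 and 2.11 CPM in knockout livers (log2 change 2.58, SE 0.59, adjusted p = 0.105). Its difference was 5.96-fold, from low counts. S100a9, a subunit of calprotectin and abundant in neutrophils, was at 1.39, 1.64 and 1.71 CPM against 2.6, 9.69 and 2.44 CPM (1.63, SE 0.54, adjusted p = 0.174), so knockout 2 alone was far from wild type. Bcl3, a partner of NF-kappaB, was at 3.12, 3.54 and 3.26 CPM against 16.9, 7.9 and 6.19 CPM (1.66, SE 0.40, adjusted p = 0.111), with knockout 1 highest.

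Others of the 12 act in transport, signalling and transcription. Slc6a9, a glycine transporter, was at 16, 19.2 and 15.2 CPM in wild type and at 102, 34.5 and 29 CPM in knockout (1.73, SE 0.41, adjusted p = 0.115). Slc13a3, a sodium-coupled carrier of dicarboxylates, was at 8.45, 4.06 and 5.67 CPM against 28.8, 15.6 and 10.9 CPM (1.61, SE 0.37, adjusted p = 0.105). In both genes knockout 1 set the top of the range. Sik1, a kinase induced by cyclic AMP that restrains gluconeogenic transcription, was at 9.75, 7.97 and 2.36 CPM against 21.9, 19.6 and 19.3 CPM (1.61, SE 0.38, adjusted p = 0.106), and its knockout values were close together. Zfpm1, a cofactor of GATA factors, was at 7.54, 5.22 and 9.18 CPM against 36.9, 20.8 and 12.8 CPM. The others were Ttyh3, Emp3, Extl1, Caskin2 and Itga5. Zfpm1, Slc6a9, Bcl3 and Caskin2 overlap another annotated gene. For Zfpm1 that gene had a mean count of 421 against 299 of its own, and for Caskin2 509 against 157.

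The 12 at lower levels all had low counts, with means of 44 to 124 reads per library. Parp2, a DNA repair enzyme, stood at 10.1, 6.91 and 11.9 CPM in wild type and at 1.57, 5.1 and 2.11 CPM in knockout livers (-1.72, SE 0.43, adjusted p = 0.113). N6amt1, a methyltransferase, was at 9.22, 7.55 and 11.7 CPM against 2.5, 3.47 and 3.56 CPM (-1.58, SE 0.36, adjusted p = 0.105). Rfx4, a transcription factor, was at 4.56, 4.01 and 6.42 CPM against 1.18, 1.53 and 1.58 CPM (-1.80, SE 0.46, adjusted p = 0.113). The 3 knockout libraries of N6amt1 and Rfx4 were close together, and Parp2 was highest in knockout 2. Mcm4, a subunit of the replicative helicase, was at 3.41, 3.64 and 3.41 CPM against 1.13, 1.27 and 1.05 CPM (-1.58, SE 0.50, adjusted p = 0.161). Clic5, of the chloride intracellular channel family, was at 5.23, 4.75 and 3.86 CPM against 0.784, 1.53 and 1.58 CPM (-1.83, SE 0.48, adjusted p = 0.115). Park2, the ubiquitin ligase parkin, Samd4, an RNA-binding repressor of translation, Rab36, a small GTPase, the zinc finger gene Zfp229, the coiled-coil genes Ccdc57 and Ccdc66, and the antisense transcript Adap2os completed the set. Adap2os overlaps Adap2, which had a mean count of 282 against 66, and Ccdc66 overlaps Fam208a, with 469 against 67. Levels without overlap were a condition of the choice, so all 24 had to keep their direction without knockout 1. In that fit 0 of the 24 passed.

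**Figure D2:**
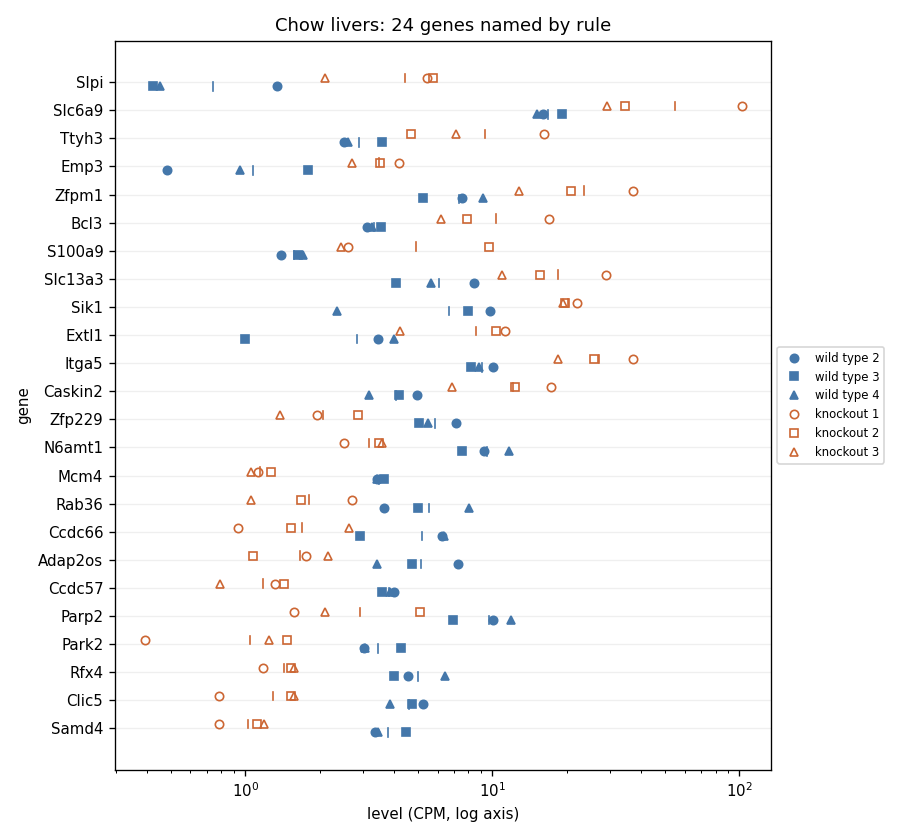
Levels of the 24 genes named by size of change, in CPM on a log axis, for the 3 wild-type (filled blue) and 3 knockout (open orange) chow libraries, with short bars at group means. The groups do not overlap in any of the 24, a condition of the choice, and Slc6a9 in knockout 1 and S100a9 in knockout 2 lie far from the other knockout libraries.

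The change of a gene on chow went with the GC content of its transcript. Over 14189 genes with a GC value, the median log2 change was -0.23 in the lowest of 6 equal groups (28.1% to 43.1% GC), -0.28, -0.19 and 0.004 in the next 3, 0.28 in the fifth and 0.56 in the highest (55.9% to 78.6%). The highest group held 777 genes at higher and 13 at lower levels at an unadjusted p under 0.05, while the lowest held 55 and 227. The upper 2 groups held 79.2% of all genes at higher levels at that p, and the lower 3 groups 84.8% of those at lower levels. Pearson's r across genes between change and GC was 0.423, a description since genes are not independent. Deviations of single libraries were taken from the wild-type mean, so a trend within wild type also enters the knockout values. On that scale every knockout library had this slope, and knockout 1 the steepest, from -0.51 in the lowest group to 0.83 in the highest. It ran from -0.10 to 0.41 in knockout 2 and from -0.04 to 0.20 in knockout 3. A GC and length trend was also fitted against the mean of all 6 libraries. Its SD (log2) was 0.41, 0.13 and 0.052 in knockout 1, 2 and 3. In wild type 2, 3 and 4 that SD was 0.2, 0.18 and 0.1. Without knockout 1 the median still went from -0.12 to 0.31, with r = 0.187. Between the genotypes on FFC it ran the other way, from 0.05 to -0.09, with r = -0.146.

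Gene length showed a weaker trend. The median change was 0.25 in the shortest of 6 equal groups (up to 1380 bases) and -0.27 in the longest (from 6580 bases), with r = -0.204 between change and log length. On FFC the same medians were 0.13 and -0.09. Taking out each library's own GC and length trend brought r with GC to 0.00574, and 0 genes passed then either, with 1655 (11.7%) at an unadjusted p under 0.05. All 24 named genes and all 18 genes with an adjusted p under 0.1 kept their direction and an unadjusted p under 0.05 with these offsets. Sizes shrank for most of the 18, for Emc10 from 1.45 to 0.92 and for Galk1 from 1.20 to 0.59, but little for Cyp2d40 (1.36 to 1.25) and Onecut1 (-2.17 to -1.97). Of the 16 at higher levels, 15 had a GC content above the median of tested genes (49.6%), and their median was 57.2%. Of the genes called in the fit of all 12 libraries, 399 were also called there with offsets. What the trend comes from was not tested.

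To show base composition at its extremes among the named genes, below are the first 90 coding bases of the 2 genes at higher levels with the most GC-rich coding sequence and of the 2 at lower levels with the least, read from GENCODE M21 transcripts (GRCm38, the same assembly as mm10) with G and C in capitals.
Zfpm1: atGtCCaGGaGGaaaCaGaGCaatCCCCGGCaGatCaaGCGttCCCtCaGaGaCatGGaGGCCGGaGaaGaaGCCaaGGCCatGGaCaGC
Bcl3: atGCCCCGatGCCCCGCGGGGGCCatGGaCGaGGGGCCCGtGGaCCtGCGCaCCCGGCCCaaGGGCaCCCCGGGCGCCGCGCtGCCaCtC
Zfp229: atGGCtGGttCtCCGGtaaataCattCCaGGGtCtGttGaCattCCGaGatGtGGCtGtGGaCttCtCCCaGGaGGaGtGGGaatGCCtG
Ccdc66: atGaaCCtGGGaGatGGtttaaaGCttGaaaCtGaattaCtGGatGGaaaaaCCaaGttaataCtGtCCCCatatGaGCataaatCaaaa
G and C make up 57.8% of the printed bases of Zfpm1, 80% of Bcl3, 53.3% of Zfp229 and 35.6% of Ccdc66. They make up 65.1% of the whole coding sequence of Zfpm1 (chr8) and 64.1% of that of Bcl3 (chr7), against 39.3% in Zfp229 (chr17) and 43.4% in Ccdc66 (chr14). Over the named genes with a coding sequence the median was 59.2% for the 12 at higher levels and 54.6% for 11 at lower levels, so the groups differ less than these extremes.

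**Figure D3:**
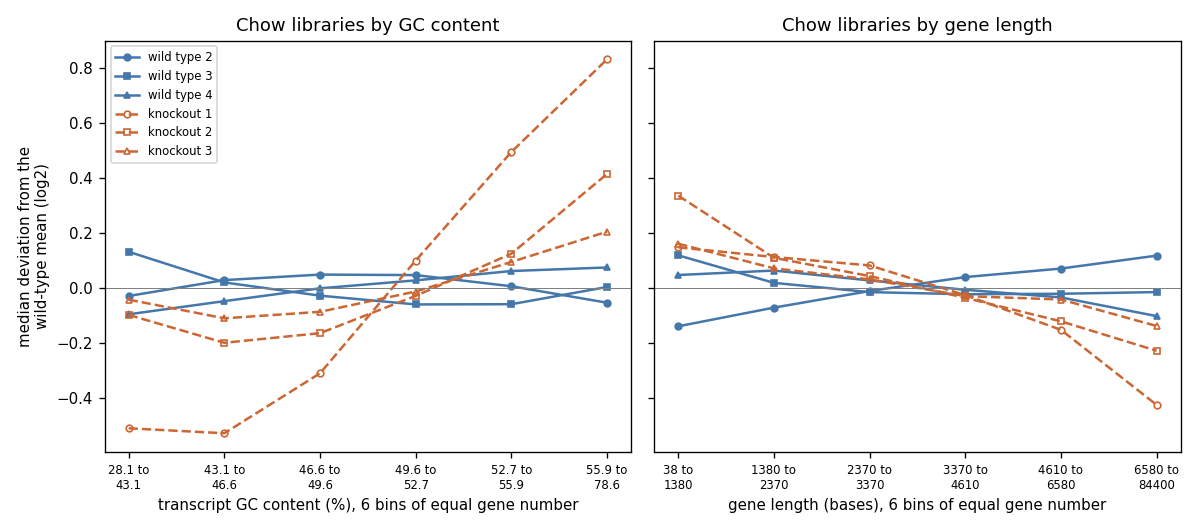
Median deviation of each chow library from the wild-type mean (log2) over 6 bins of transcript GC content (left, %) and 6 bins of gene length (right, bases). Solid blue lines are wild-type and dashed orange lines knockout libraries. Knockout 1 runs from -0.51 to 0.83 over GC, and the wild-type libraries, whose mean is the reference, stay between -0.10 and 0.13.

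Lists of genes are given by their members at an unadjusted p under 0.05, to be read against 9.74% at higher and 6.21% at lower levels over all tested genes, or 8.1% and 3.56% with offsets. In the S1P pathway 1 of 14 tested genes had an unadjusted p under 0.05, or 1 in each direction with offsets, and the median change was 0.05 against -0.002 over all tested genes. That gene was Sphk2, a kinase that makes S1P, at 55.2, 56.3 and 59.2 CPM in wild type and 104, 82.8 and 61.9 CPM in knockout (log2 change 0.55, SE 0.24, adjusted p = 0.273). Sphk2 overlaps the ribosomal gene Rpl18, which had a mean count of 4070 against 1346, and with GC and length offsets its change was 0.10. Apom, which carries S1P in plasma lipoproteins, was at 256, 381 and 321 CPM against 458, 466 and 374 CPM (0.45, SE 0.24, adjusted p = 0.374), with overlapping groups. The receptors S1pr2, S1pr3 and S1pr5 had changes of 0.60, -0.30 and 0.07, the exporter Spns2 -0.25 and the lyase Sgpl1 -0.15, each with overlapping groups. Of 18 ceramide and sphingolipid genes 1 was at higher and 3 at lower levels at that p with a median of -0.16, and with offsets 1 and 0 with a median of 0.07. Smpd1, the acid sphingomyelinase that frees ceramide in lysosomes, was at 38.8, 42.5 and 40.6 CPM against 99.7, 69.4 and 56.3 CPM (0.89, SE 0.25, adjusted p = 0.138). Col4a3bp, which carries ceramide to the Golgi, was at 41.2, 30.7 and 26.9 CPM against 16.5, 18.6 and 24.1 CPM (-0.73, SE 0.26, adjusted p = 0.195). Both sets of 3 libraries stood clear of each other.

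Markers of Kupffer cells leaned to higher levels in knockout liver, the C1q genes most. Of 14 tested markers 6 had an unadjusted p under 0.05, all at higher levels, and the median change was 0.56. Their summed level was 502 to 658 CPM in the wild-type and 644 to 930 in the knockout livers, which overlap. C1qb, a chain of C1q, the starter of the classical complement pathway, stood at 32.6, 38.7 and 33.4 CPM in wild type and at 103, 73.1 and 52.2 CPM in knockout (1.13, SE 0.26, adjusted p = 0.105). C1qa was at 20.4, 32.1 and 33.4 CPM against 75.4, 50.2 and 36.4 CPM (0.93, SE 0.29, adjusted p = 0.155), and C1qc at 19.7, 42.7 and 28.1 CPM against 65.7, 45.7 and 40 CPM (0.75, SE 0.29, adjusted p = 0.214). All 3 genes were highest in knockout 1, and C1qc overlapped between groups. The other markers at that p were Cd5l, a secreted scavenger protein of macrophages (85.3 against 131 CPM on average, change 0.63), Nr1h3, a nuclear receptor for oxysterols (83.7 against 121 CPM, 0.55), and Folr2, a folate receptor (10.1 against 15.8 CPM, 0.66). Cd5l overlapped between groups. Of the remaining 8, Clec4f had a change of 0.29, Vsig4 of 0.34, Timd4 of 0.14, Spic of 0.57 and Marco of -0.03, each with overlapping groups. With offsets the list's median was 0.32 and 3 of its genes were at higher levels at an unadjusted p under 0.05, namely C1qb (0.57), Cd5l (0.57) and Vsig4 (0.54), while C1qa stood at 0.29 and C1qc at 0.26.

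General macrophage markers had a median of 0.51, with 3 of 15 genes at higher levels at that p (4 with offsets) and summed levels of 228 to 299.9 CPM in wild-type and 247 to 326 in knockout livers. Csf1r, the receptor for macrophage growth factor, stood at 31, 42.4 and 31.6 CPM in wild-type and 92.4, 49 and 42.5 CPM in knockout livers (0.82, SE 0.28, adjusted p = 0.188). Laptm5, a lysosomal membrane protein of leukocytes, was at 6.91, 8.71 and 7.87 CPM against 23.5, 12.3 and 9.81 CPM (0.97, SE 0.34, adjusted p = 0.189). In both, knockout 1 lay far above and the other 2 knockout libraries just above wild type. Cybb (-0.51), Mpeg1 (-0.23), Lyz2 (-0.14) and Itgam (-0.14) had changes below 0, each with overlapping groups, and the remaining members had changes above 0. Mpeg1, the most abundant of the list in wild type, averaged 59.4 CPM there and 50.7 CPM in knockout. Among genes of monocyte-derived macrophages 1 of 8 passed an unadjusted p of 0.05. This was S100a6, at 0.90 against 2.47 CPM on average, with overlapping groups. With offsets 2 passed, Plac8 (0.68) and Fn1 (0.38), and S100a6 did not. Of lipid-associated macrophage genes 1 of 10 passed that p, the lysosomal protease Ctsd (387, 420 and 409 against 855, 698 and 576 CPM, 0.82, SE 0.24, adjusted p = 0.143). Trem2 and Spp1, which define lipid-associated macrophages, had changes of 0.68 and -0.27 with overlapping groups. Neutrophil genes were near the limit of detection. Ly6g, Mpo and Ltf were at 0, the summed level of the list ranged from 4.47 to 5.28 CPM in wild-type livers and from 5.47 to 17.4 in the knockout, and S100a8 was at 0.384, 0.844 and 1.15 CPM against 0.98, 5.51 and 0.395 CPM, high in knockout 2 alone.

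Markers of liver endothelium, where S1pr1 is abundant, were mixed. Of 14 tested, 4 were at higher and 1 at lower levels at an unadjusted p under 0.05, with a median of 0.20, or 3 and 1 and 0.14 with offsets. The 14 markers summed to 259 to 298 CPM in wild-type and 305 to 416 in knockout livers, without overlap. Stab1, a scavenger receptor of sinusoidal endothelium, was at 15.4, 25.3 and 20.4 CPM in wild type and at 69.9, 39.7 and 27.5 CPM in knockout (1.18, SE 0.31, adjusted p = 0.115). Eng, a co-receptor for transforming growth factor beta, was at 20.5, 32.5 and 30.1 CPM against 75.1, 46.9 and 39.6 CPM (0.97, SE 0.28, adjusted p = 0.138), and overlaps Fpgs, which had a mean count of 1955 against 783. Plvap, of endothelial fenestrae, was at 9.36, 12.1 and 12.2 CPM against 31.3, 23.5 and 12.7 CPM. Knockout 1 was highest in all 3 and knockout 3 lay closest to wild type. With offsets Stab1 stood at 0.83, Eng at 0.53 and Plvap at 0.38, and Plvap did not keep an unadjusted p under 0.05. Tek went the other way, at 10.9 CPM on average in wild type and 5.99 CPM in knockout (-0.86, SE 0.32, adjusted p = 0.206). Flt1 did so too, at 6.19 against 4.08 CPM (-0.59, SE 0.37, adjusted p = 0.435), and neither overlapped between groups. Kdr, Pecam1 and Stab2 had changes of -0.32, -0.04 and -0.02, each with overlap. Stellate cell and fibrosis genes had 4 of 18 at higher levels and a median of 0.37, or 4 and 0.26 with offsets. Lum, a proteoglycan of collagen fibres, was at 5.91, 9.02 and 6.17 CPM against 8.77, 19.1 and 13.4 CPM, and Pdgfrb, a receptor of stellate cells, at 2.35, 2.96 and 1.81 CPM against 6.86, 4.54 and 4.81 CPM. In bile duct markers 1 of 7 was at higher levels at that p, and the median of 0.61 was 0.12 with offsets. T and NK cell genes had 0 of 8 in either direction. B and plasma cell genes had 1 of 9 at higher levels, Sdc1 (200 against 305 CPM on average), or 0 with offsets, and a median of -0.15.

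Acute phase proteins, made by hepatocytes in inflammation, had the second-highest median of the lists with at least 5 tested genes, 0.73, with 5 of 21 at higher levels at an unadjusted p under 0.05. Hpx, hemopexin, which binds free heme, stood at 4120, 7760 and 5530 CPM in wild-type and at 16200, 25600 and 7440 CPM in knockout livers (1.51, SE 0.36, adjusted p = 0.113). Hp, haptoglobin, which binds free hemoglobin, was at 2420, 4730 and 3210 CPM against 7950, 11000 and 4450 CPM (1.18, SE 0.31, adjusted p = 0.115). Knockout 3 lay within the wild-type range for both genes and the other 2 knockout livers above it. Serpina3n, a protease inhibitor, was at 429, 424 and 411 CPM against 632, 1050 and 517 CPM (0.80, SE 0.26, adjusted p = 0.174). The classical acute phase genes, picked out after their values were seen, varied widely within both groups. Saa1, serum amyloid A, was at 37, 567 and 76.9 CPM in wild type and at 1160, 1050 and 39.9 CPM in knockout. Lcn2, lipocalin 2, was at 2.93, 30.4 and 7.47 CPM against 32.2, 240 and 5.33 CPM. Wild type 3 was the highest wild-type library and knockout 3 among the lowest of all 6 in both, and neither gene was near the threshold (adjusted p = 0.67 for Saa1 and adjusted p = 0.51 for Lcn2). With offsets 6 genes of the list were at higher levels and its median was 0.71.

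Of 18 complement genes 4 were at higher levels, with and without offsets, among them Serping1, the C1 inhibitor, at 868, 935 and 998 CPM against 1690, 1760 and 1070 CPM (0.69, SE 0.25, adjusted p = 0.196), and C4b above. MHC class I genes had 5 of 13 at higher levels and a median of 0.43, or 3 and 0.17 with offsets. Tap2, of the peptide transporter, was at 9.27, 9.71 and 11.9 CPM against 30.9, 17.7 and 13.6 CPM, and Psmb10, an immunoproteasome subunit, at 23.3, 33.8 and 34.6 CPM against 50.6, 69.7 and 41 CPM. Knockout 3 was the lowest knockout library in Serping1, Tap2 and Psmb10 alike. With offsets Tap2 stood at 0.59 and Psmb10 at 0.37, and Psmb10 did not keep an unadjusted p under 0.05. Interferon response genes had a median of -0.20, with 1 of 20 at lower levels at an unadjusted p under 0.05, or 0 with offsets. Cytokine, chemokine and adhesion genes had 1 of 13 at higher levels, the adhesion molecule Icam1, at 7.01, 8.34 and 7.57 CPM against 16, 13.8 and 8.89 CPM.

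Of 19 triglyceride and lipid droplet genes 7 were at higher levels at an unadjusted p under 0.05 and 0 at lower, with a median of 0.55, and with offsets 2 and 0.23. Dgat2, which makes triglyceride, was at 458, 420 and 441 CPM in wild type and at 982, 632 and 630 CPM in knockout (0.78, SE 0.25, adjusted p = 0.164). Pnpla2, the lipase that opens triglyceride breakdown, was at 65.2, 64 and 64.8 CPM against 134, 81.5 and 96.2 CPM (0.69, SE 0.24, adjusted p = 0.191). Wild-type values were nearly equal in both and every knockout value lay above them. With offsets Dgat2 stood at 0.36 and Pnpla2 at 0.285, and neither kept an unadjusted p under 0.05. The 2 genes at that p with offsets were Fitm2 (0.73) and Lpin1 (0.87). Fatty acid synthesis had 4 genes at higher and 3 at lower levels of 19, with a median of -0.03, or 3, 2 and 0.06 with offsets. Acacb, the acetyl-CoA carboxylase whose product restrains fatty acid oxidation, was at 48.4, 39.3 and 27.3 CPM against 59.9, 96.8 and 100 CPM (1.17, SE 0.27, adjusted p = 0.105). Srebf1, the transcription factor of fat synthesis, was at 127, 185 and 125 CPM against 333, 362 and 223 CPM (1.08, SE 0.26, adjusted p = 0.106). Fasn, fatty acid synthase, was at 142, 135 and 176 CPM against 384, 481 and 174 CPM (1.20, SE 0.30, adjusted p = 0.113), with knockout 3 inside the wild-type range. With offsets these 3 changes were 1.02, 0.68 and 0.90. The 3 at lower levels were Elovl6 (64.7 against 36.8 CPM on average, change -0.81), Acaca (54.8 against 35.5 CPM, -0.62) and Scd1 (3670 against 2159 CPM, -0.76). Of these, only Scd1 overlapped between groups. With offsets Elovl6 stood at -0.52, Acaca at -0.21 and Scd1 at -0.49.

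Glucose metabolism had 5 of 19 genes at higher levels and a median of 0.42, or 6 and 0.11 with offsets. Igfbp1, a binding protein for insulin-like growth factors that insulin represses, was at 11.9, 11.3 and 10.5 CPM against 13.8, 39.9 and 29 CPM (1.29, SE 0.32, adjusted p = 0.113), so knockout 1 lay nearest to wild type. In fatty acid oxidation 1 of 24 genes was at higher levels at that p, the uncoupling protein Ucp2, at 9.36, 10.9 and 8.48 CPM against 30.8, 19.5 and 13.1 CPM (1.15, SE 0.31, adjusted p = 0.129). With offsets there were 5, adding Angptl4, an inhibitor of lipoprotein lipase (0.73), Acot1, an acyl-CoA thioesterase (0.61), Vnn1, a pantetheinase (0.43), and the carnitine carrier Slc25a20 (0.41).

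Cholesterol synthesis was split, with 6 genes at higher and 3 at lower levels of 25 and a median of 0.05, or 4, 1 and 0.09 with offsets. Mvk, mevalonate kinase, was at 17.1, 17.8 and 16.7 CPM in wild type against 25.9, 49.4 and 22.2 CPM in knockout, while Stard4, a cholesterol carrier, was at 191, 161 and 156 CPM against 80.2, 104 and 119 CPM (-0.73, SE 0.24, adjusted p = 0.167). Neither Mvk nor Stard4 overlapped between groups, and their signs were opposite. With offsets Mvk stood at 0.59 and Stard4 at -0.42, and Mvk did not keep an unadjusted p under 0.05. In cholesterol efflux and esterification 4 of 14 genes were at higher levels, or 3 with offsets. Scarb1, the receptor for high-density lipoprotein, was at 92.4, 73.1 and 65.8 CPM against 209, 117 and 122 CPM (0.96, SE 0.27, adjusted p = 0.133) and had a change of 1.25 with offsets. Lcat, which esterifies cholesterol in plasma lipoproteins, was at 305, 291 and 398 CPM against 804, 620 and 484 CPM (0.95, SE 0.26, adjusted p = 0.123). Bile acid genes had 2 of 19 at higher levels, also with offsets. These were Slc27a5, which joins coenzyme A to bile acids (1440, 1200 and 1280 against 2190, 1730 and 1790 CPM, 0.55, SE 0.23, adjusted p = 0.263), and Abcc3, a basolateral exporter (356, 278 and 274 against 627, 315 and 518 CPM).

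Among genes for secreted and detoxifying functions of hepatocytes, a few abundant ones stood apart. Of 15 growth hormone and major urinary protein genes 7 were at higher levels, with a median of 0.54, or 5 and 0.37 with offsets. Mup1, a carrier of pheromones, stood at 458, 413 and 280 CPM in wild type and at 838, 976 and 512 CPM in knockout (1.02, SE 0.27, adjusted p = 0.119). Major urinary proteins are near-identical copies, so counts of single members are uncertain. Hepatocyte markers had 2 of 14 at higher levels, Hp and Apoa1, or 4 with offsets. Apoa1, a structural protein of high-density lipoprotein particles, was at 5520, 11900 and 9730 CPM against 16100, 19200 and 11700 CPM with overlap. Hp was among the 4 with offsets (0.73) and Apoa1 was not (0.33). Por, the reductase that feeds electrons to all microsomal cytochromes P450, was at 446, 418 and 151 CPM against 790, 940 and 881 CPM (1.37, SE 0.32, adjusted p = 0.105). The 3 knockout values were close and wild type 4 was low. Por was 1 of 2 xenobiotic genes at higher levels among 18. With offsets 3 were at higher and 1 at lower levels. Cyp2d9, a male-biased P450, was at 1410, 1600 and 1460 CPM against 3690, 2170 and 2190 CPM (0.86, SE 0.26, adjusted p = 0.147). Of 14 male-biased genes 2 were at higher levels, with and without offsets, and the median was -0.12, or 0.08 with offsets.

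Genes of protein synthesis and respiration were at higher levels in larger shares. Of 30 cytosolic ribosomal protein genes 15 were at higher and 0 at lower levels at an unadjusted p under 0.05, with a median of 0.54. With offsets these were 13 and 0.44. Rps27 was at 205, 301 and 228 CPM in wild type and at 360, 652 and 420 CPM in knockout (0.97, SE 0.26, adjusted p = 0.125), Rpl38 at 71.4, 140 and 108 CPM against 145, 311 and 171 CPM (0.98, SE 0.30, adjusted p = 0.151). With offsets the change was 0.59 for Rps27 and 0.42 for Rpl38, and of these 2 only Rps27 kept an unadjusted p under 0.05. Both were highest in knockout 2, not in knockout 1, and short transcripts as a whole were highest there too. Their retrocopies in the genome may share reads with them. Respiratory chain genes encoded in the nucleus had 6 of 21 at higher and 1 at lower levels and a median of 0.43, or 8, 0 and 0.36 with offsets. Uqcrc1, a core subunit of complex III, was at 207, 222 and 212 CPM against 428, 335 and 364 CPM (0.82, SE 0.23, adjusted p = 0.138). Atp5g1, which encodes a ring subunit of ATP synthase, was at 120, 139 and 150 CPM against 195, 234 and 194 CPM (0.61, SE 0.23, adjusted p = 0.212). Neither overlapped between groups.

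Noncoding RNAs kept in the nucleus were the opposite case. Of 9 tested, 3 were at lower and 0 at higher levels, and the median of -0.69 was the lowest of the lists with at least 5 tested genes. Snhg11 stood at 37.6, 21.2 and 25.2 CPM in wild type and at 11.2, 14.3 and 9.48 CPM in knockout (-1.26, SE 0.29, adjusted p = 0.105). Malat1, an abundant RNA of nuclear speckles, was at 171, 227 and 178 CPM against 90.2, 127 and 138 CPM (-0.69, SE 0.24, adjusted p = 0.192). Neat1, the scaffold of paraspeckles, was at 98.5, 66.5 and 228 CPM against 84.7, 37.6 and 33.1 CPM, with overlap and wild type 4 highest. The summed level of the list ranged from 413 to 581 CPM over the wild-type livers and from 299 to 330 over the others. With offsets the median was -0.18, with 1 gene in each direction.

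Genes induced by glucocorticoids had the highest median of all lists with at least 5 tested genes, 0.83, with 2 of 12 at an unadjusted p under 0.05, or 0.73 and 3 with offsets. Fkbp5, a chaperone partner of the glucocorticoid receptor, was at 36.8, 40.4 and 21.1 CPM in wild type and at 65.9, 52.6 and 90.3 CPM in knockout (1.10, SE 0.28, adjusted p = 0.114). Per1, a clock gene that glucocorticoids induce, was at 23.7, 25.7 and 13.6 CPM against 57.5, 30 and 35.7 CPM (0.98, SE 0.30, adjusted p = 0.147). The 3 knockout livers lay above all wild-type livers in both, with different livers on top. Among clock genes 1 was at higher and 2 at lower levels of 19, and 0 in either direction with offsets. The lower 2 included Bhlhe41, a clock repressor, at 4.51, 2.59 and 4.01 CPM against 1.47, 2.19 and 1.45 CPM.

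In 19 genes of endoplasmic reticulum stress 0 passed an unadjusted p of 0.05, with Hspa5, the main chaperone of that compartment, at 441, 662 and 842 CPM against 322, 578 and 426 CPM (-0.55, SE 0.28, adjusted p = 0.34). ATF4 targets had 3 of 14 at higher levels and a median of 0.62, or 2 and 0.06 with offsets. They included Sesn2, a stress-induced brake on growth signalling, at 3.65, 2.59 and 4.46 CPM against 11.1, 5.86 and 8.56 CPM, and Shmt2, of mitochondrial serine use, at 154, 167 and 168 CPM against 328, 279 and 229 CPM. With offsets Sesn2 stood at 0.80 and Shmt2 at 0.33, and Shmt2 did not keep an unadjusted p under 0.05. NRF2 targets had 3 at higher and 2 at lower levels of 15, or 0 and 1 with offsets. Keap1, which holds NRF2 in check, was at 28.8, 32.5 and 28.1 CPM against 67, 39.9 and 39.7 CPM, and Gclc, of glutathione synthesis, at 183, 200 and 245 CPM against 149, 99.4 and 159 CPM. Their changes went from 0.72 to 0.28 and from -0.61 to -0.37 with offsets. Of 13 p53 targets 1 was at higher and 2 at lower levels (2 and 1 with offsets), with Sesn1 at 17.5, 16.2 and 13.4 CPM against 6.66, 9.84 and 8.36 CPM (-0.92, SE 0.29, adjusted p = 0.164). In immediate early genes 3 of 15 were at higher levels (1 with offsets, and 1 at lower), among them Jund, at 4.32, 4.38 and 6.02 CPM against 14.9, 10.9 and 10 CPM (1.29, SE 0.33, adjusted p = 0.115).

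**Figure D4:**
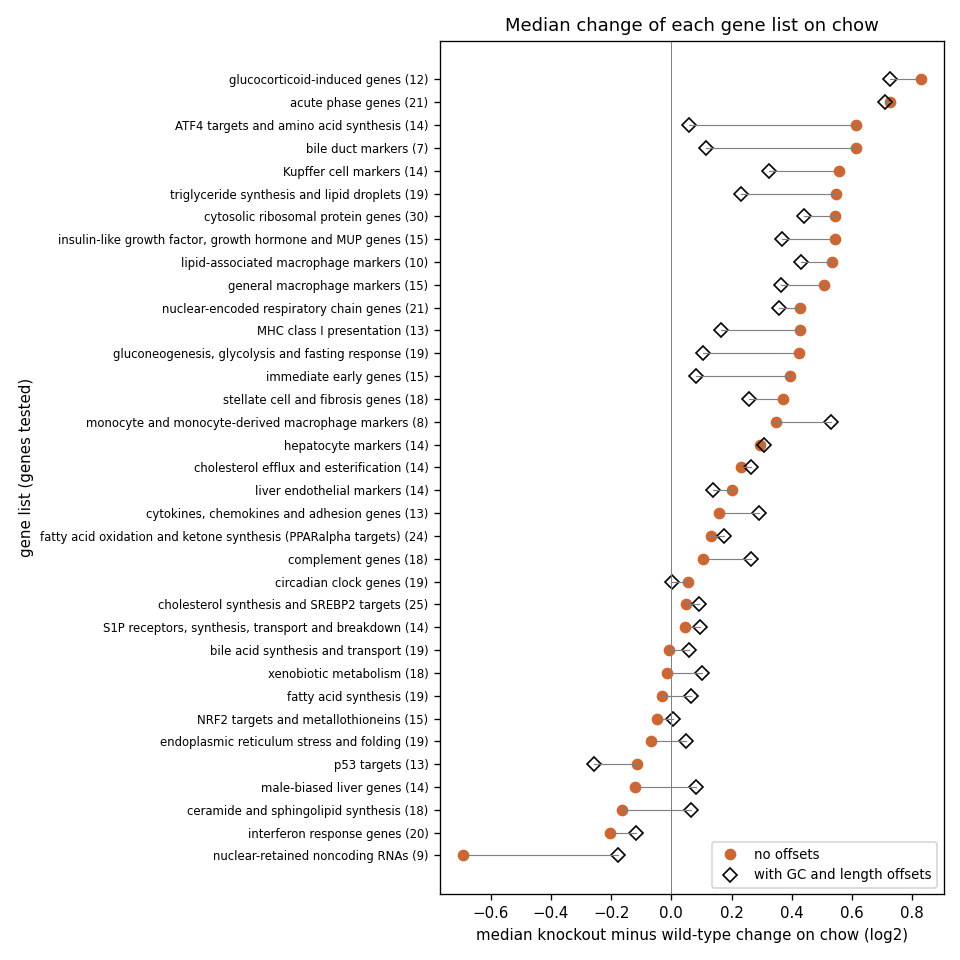
Median knockout minus wild-type change on chow (log2) of each described list with at least 5 tested genes, without (filled circles) and with (open diamonds) GC and length offsets. The number of tested genes is in brackets. Medians run from -0.69 for nuclear-retained noncoding RNAs to 0.83 for glucocorticoid-induced genes, and the ATF4 list goes from 0.62 to 0.06 with offsets.

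Over all 52 lists, 46 had at least 5 tested genes. Of these, 33 had a median above 0 and 11 a median beyond 0.5 in size, and with offsets the numbers were 39 and 5. The median over all tested genes was 0.05 with offsets.

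Genes near the 2 engineered loci did not stand out in number. Within 10 Mb of S1pr1, 5 of 96 tested genes (5.21%) had an unadjusted p under 0.05, and within 10 Mb of Lyz2 8 of 78 (10.3%), against 15.9% of all tested genes.

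The same genotypes on FFC are separate libraries and share none with the chow comparison. Of 15821 genes tested there, 17 (0.107%) had an adjusted p under 0.05. Over 14130 genes tested on both diets the genotype changes had the same sign in 50.8%, with r = -0.0499 across genes. Of the 24 named genes 8 had the same sign on FFC and 0 passed there. Of the 18 genes with an adjusted p under 0.1, 6 had the same sign and 0 passed, and of the 17 genes called on FFC 7 had the same sign on chow. Emc10 on FFC stood at 25.6, 20.6 and 24.6 CPM in wild-type and at 24.3, 19.8 and 22 CPM in knockout livers, at the level of chow wild type.

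A direct test of whether the genotype change differs between the diets, over all 12 libraries, called 8 of 16283 genes (0.0491%), 4 in each direction, with 2625 (16.1%) at an unadjusted p under 0.05. With GC and length offsets it called 0. Emc10 (difference of the log2 changes 1.55), Itga5 (1.94) and Klhl25 (1.93) had higher levels in all 3 knockout livers on chow. On FFC, Itga5 was at 18.2, 14.9 and 16.3 CPM in wild-type and 14.3, 10.9 and 13.3 CPM in knockout livers. N6amt1 (-2.002) and Rfx4 (-2.50) had lower levels in knockout on chow and higher levels in knockout on FFC. The FFC levels were 7.05 to 7.67 against 9.39 to 10.7 CPM for N6amt1 and 2.91 to 5.01 against 6.36 to 7.13 CPM for Rfx4. Neither gene passed in the 6 FFC libraries alone (adjusted p = 0.218 for N6amt1 and adjusted p = 0.192 for Rfx4) or in the 6 chow libraries.

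Marco and Clec2h show other patterns. Marco, a scavenger receptor of Kupffer cells, was even on chow, at 8.64, 16.1 and 13 CPM in wild type and 11.7, 16.1 and 9.09 CPM in knockout. On FFC it stood at 5.79, 4.64 and 9.01 CPM in wild-type and at 26.2, 48.7 and 50.1 CPM in knockout livers (difference -2.72, adjusted p = 0.0467), so the contrast lies on FFC. In the test of the FFC libraries alone Marco did not pass (adjusted p = 0.0955). Clec2h, a lectin-like membrane protein, was at 35.8, 41.1 and 24 CPM against 18.2, 16.1 and 21.2 CPM on chow and at 1.74, 2.4 and 2.61 CPM against 10.1, 3.75 and 6.89 CPM on FFC (difference -2.48, adjusted p = 0.0467). The signs were opposite on the 2 diets, with no overlap on either. Clec2h did not pass on either diet alone (adjusted p = 0.156 on chow and adjusted p = 0.122 on FFC). The eighth gene, Cyp17a1, a steroid-synthesis enzyme, had a change of 0.61 on chow and -1.88 on FFC.

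**Figure D5:**
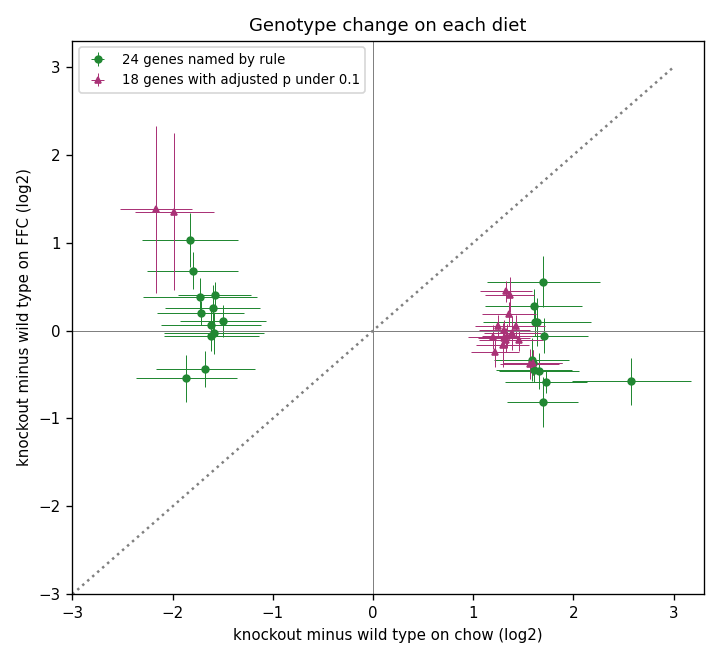
Knockout minus wild-type log2 change on FFC (vertical) against that on chow (horizontal) for the 24 genes named by size (circles) and the 18 genes with an adjusted p under 0.1 (triangles), with SE bars. Points on the dotted line would have equal changes on both diets. The genes lie beyond 1 in size on chow and mostly between -1 and 1 on FFC, with 8 of the 24 and 6 of the 18 on the same side of 0.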

How the data were processed

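Liver RNA of 12 libraries was sequenced with paired-end reads, and the 6 chow libraries were compared. The deposited values are raw read counts per Ensembl gene. Per the submitters' processing notes and design text, the authors used TopHat 2.1.0 on mm10, featureCounts 1.4.6 for counting and edgeR 3.18.1. Which Ensembl release was used, and whether counting used the strand, is not given in the sources used here. Total counts were 18873092 to 25855609 per chow library, and all 37 mitochondrial genes were at 0. No columns of per-sample values were left unused.

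Genes were filtered with filterByExpr, library scaling used trimmed means of M-values (TMM), and knockout was compared with wild type in the 6 chow libraries with edgeR 4.0.16's quasi-likelihood test (limma 3.58.1, R 4.3.3). Two-sided p-values were adjusted over every tested gene (Benjamini-Hochberg) and called under 0.05. Levels are CPM with scaling over all 12 libraries. SE was derived from the change and its test statistic. The FFC comparison used its own 6 libraries and the difference between diets all 12. GC content was read from the longest GENCODE M21 transcript of each gene (known for 99.09% of tested genes), and gene length is as deposited. Offsets were fitted per library as splines on GC and log length, with 4 degrees of freedom. The script was tested on simulated data.

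The named genes were, in each direction, the 12 with the largest change that passed, had a mean log2 CPM of 1 or more and an established symbol, and did not overlap between groups, filled from the fit of all 12 libraries because none passed in the 6. Added were up to 3 genes of lowest p from each of 36 described lists, S1pr1, Lyz2 and 6 genes that differ between the diets. In all 52 lists with 794 distinct genes were counted. The comparison, the lists and the rules were chosen with earlier results of these data known, so lists have no test. Alternatives were median-ratio size factors, no low-count filter, the authors' filter (protein-coding, RPKM of at least 1 computed from the deposited counts), offsets, a replicate term, DESeq2 1.42.0, limma-voom with and without quality weights, all 12 libraries and each chow library left out. Offsets on all 12 libraries and each library left out of that fit were added after the data were seen. A few genes that the rule names are not reported here.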

Additional observations from a re-analysis of the deposited data

Results flagged for a closer look

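Of the genes whose genotype change differed between the diets by a test of the difference itself, 6 are given here, each with adjusted p = 0.0467 in the fit of all 12 libraries. The change on chow minus that on FFC, on the log2 scale, was 1.55 for Emc10 and 1.94 for Itga5, both at higher levels in all 3 knockout chow livers. It was -2.002 for N6amt1 and -2.50 for Rfx4, both at lower levels in all 3 knockout chow livers, and -2.48 for Clec2h, whose levels did not overlap between the genotypes on either diet. It was -2.72 for Marco, where the genotypes overlapped on chow and stood apart on FFC. With GC and length offsets none of the 8 genes called in this test passed (0 calls with edgeR, 1976 at an unadjusted p under 0.05), against 419 calls with DESeq2 and 24 with quality-weighted limma-voom. Over the alternatives tried on these 6 genes, 43 of 72 values stayed past the threshold and 29 did not, all with the same sign.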

How the results depend on the processing

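The count of 0 genes on chow held with median-ratio size factors, GC and length offsets, the replicate term (1055 at an unadjusted p under 0.05) and that term with offsets. It became 304 without a low-count filter, 392 with DESeq2, 292 with quality-weighted and 15 with plain limma-voom, 13 with the authors' filter, 18 at an adjusted p under 0.1, 2267 when unadjusted p up to 0.05 and log2 changes from 0.5 counted, 1185 over all 12 libraries and 701 there with offsets. Leaving out 1 library gave 0 to 166, namely 166 without knockout 3, 5 without knockout 1, 1 without wild type 2 and 0 otherwise, and over all 12 libraries 34, 690 and 514 without wild type 2, 3 and 4 and 786, 1492 and 2533 without knockout 1, 2 and 3. The cause was not tested. All 18 genes with an adjusted p under 0.1 kept their direction wherever tested, and 15 of them entered the authors' filter. Their levels do not overlap between groups, so leaving out 1 chow library could not turn the direction. The difference between diets gave 8 genes, and 600 without a filter, 0 with offsets, 396 with the replicate block, 419 with DESeq2, 24 with quality weights and 0 to 580 with 1 chow library left out (0 without wild type 3 or 4, 1 without wild type 2, 96 without knockout 2, 580 without knockout 3). Replicate numbers 2 and 3 recur in both groups but same-numbered libraries did not deviate together (r = -0.09 and -0.029), so the block is no pairing. For 93 named genes, 1270 of 1481 values kept sign and side, 200 newly passed and 11 changed sign. Those were Hspa5 (0.11 with block and offsets), S100a8 (-0.17 to 2.01 with 1 library left out), S1pr1 (-0.11 with quality weights, -0.16 to 0.27 with 1 left out) and Marco (0.047 with the block, 0.11 with quality weights, 0.0046 with limma-voom, -0.26 to 0.17 with 1 left out). Of 36 list medians, 26 moved by less than the spread between replicates with offsets. At 3 libraries a group and this spread, the smallest fold among the 18 genes was 2.3.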

Other observations

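A stretch of chromosome 1 (24611535 to 24616197, mm10) that carries 7 pseudogenes copied from the mitochondrial genome had counts while all 37 mitochondrial genes were at 0. Gm28437 stood at 108, 198 and 152 CPM in wild-type and at 160, 412 and 330 CPM in knockout chow livers (log2 change 0.98, SE 0.31, adjusted p = 0.159), and Gm10925 at 112, 222 and 151 against 181, 364 and 369 CPM (0.92, SE 0.30, adjusted p = 0.164). Gm28438, counted among the 18 genes above, was at 10.1, 9.13 and 7.57 against 17.2, 26.8 and 26 CPM. Gm29216, at the end of the same stretch, was at 141, 300 and 166 against 122, 180 and 307 CPM (0.02, SE 0.33, adjusted p = 0.986). Changes over the 7 entries ran from 0.02 (Gm29216) to 1.39 (Gm28438), and the entries were not compared with each other by a test. Whether their reads come from mitochondrial RNA was not tested.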
